A study of Mus musculus with 4 samples.

Results

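The Wnt genes described here are the secreted Wnt ligands, their Frizzled receptors with the co-receptors Lrp5 and Lrp6, the secreted antagonists of the Sfrp and Dkk families with Frzb and Wif1, and the intracellular feedback inhibitor Axin2. The rule that chose them uses gene names and not levels, but it was set with earlier results of these data known. The choice gave 42 of the 55416 genes in the files: 19 ligands, 10 Frizzleds, 2 co-receptors, 10 secreted antagonists and Axin2. The study sequenced RNA of the mouse myoblast line C2C12 in 4 libraries. Of these, 2 came from cells given DNA for wild-type lamin A and 2 from cells given DNA for K97E lamin A, a form that the series calls a mutant of dilated cardiomyopathy. The cell line label of all 4 is C2C12, but the titles of both K97E libraries read C1C12. All cells received 3 µg of DNA with the lipid reagent Lipofectamine and were harvested 24 h later, and all keep their own Lmna gene. The titles call the replicates biological, but the labels do not say that they were separate transfections. The p-values therefore reflect only how far these samples differ among themselves, and that spread may be technical. Lipid transfection is transient, and the share of cells that took up the DNA was not analysed here.

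Wnt proteins are secreted lipid-modified signals. They bind the cysteine-rich domain of a Frizzled, and together with Lrp5 or Lrp6 this stops the destruction of beta-catenin, which then acts with TCF and LEF factors on target genes such as Axin2. Sfrp proteins, Frzb and Wif1 bind the ligands outside the cell, whereas the Dkk proteins Dkk1, Dkk2 and Dkk4 bind Lrp5 and Lrp6. In muscle, Wnt signals are known for their roles in satellite cells and in the fusion of myoblasts during regeneration.

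A gene was called measured at a mean of at least 0.5 TPM (transcripts per 1000000, a level corrected for length) over the 4 libraries. By this rule 14 of the 42 genes were measured: 4 ligands, 7 Frizzleds, both co-receptors and 1 secreted antagonist. A further 17 had some signal below that level, and 11 were listed at 0 in all 4 libraries. The coverage in the files corresponded to between 89600000 and 115600000 reads of 100 bases per library. Lmna, the mouse gene for lamin A, had 557.7 and 596.0 TPM with wild-type lamin A and 659.7 and 629.4 TPM with K97E. These values do not separate the transfected from the cells' own copy, and how far they count the transfected copy was not tested. The myoblast label was checked with 8 markers, of which 6 were measured. Of these, 3 were lower in both K97E libraries than in both wild-type ones, in deposited TPM and after scaling of the libraries to a common median ratio. Of all genes tested, 9.72% were so in deposited TPM and 16.8% after scaling. The part of these 3 markers in the results was not tested. The acetylcholine receptor subunit gene Chrna1 had 49.8 and 51.8 TPM with wild-type lamin A and 40.2 and 41.3 TPM with K97E, a log2 difference of -0.37 (95% interval -0.60 to -0.15, limma unadjusted p = 0.00737, adjusted p = 0.965). Desmin, Des, had 404.2 and 466.8 TPM with wild-type lamin A and 401.0 and 383.9 TPM with K97E, and the myoblast factor Myod1 had 4.96 and 4.94 TPM against 4.56 and 4.67 TPM. The groups overlapped for Myf5, between 41.5 and 47.8 TPM, for Cdh15, between 39.7 and 48.4 TPM, and for Mymk. Pax7, which marks satellite cells, was listed at 0 in 3 libraries and at 0.00647 TPM in K97E replicate 1. Myog, which marks differentiation, was listed at 0 in 3 libraries and at 0.0959 TPM in wild-type replicate 2. Of other cell types, the fibroblast markers summed to between 29.2 and 41.3 TPM, with Dcn at 18.6 to 31.9 TPM, and the endothelial markers to between 17.5 and 20.8 TPM, of which Cdh5 made up 17.1 to 20.3 TPM. The neural markers summed to between 5.57 and 8.20 TPM, those of leukocytes to between 4.27 and 7.29 TPM with 3 of 8 listed at 0 in every library, those of adipocytes or osteoblasts to between 1.61 and 3.20 TPM, and those of epithelium to between 0.410 and 0.625 TPM. In sequenced bulk RNA, fewer cells of a type and less RNA per cell cannot be told apart.

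Several sequences carry the transcript results given further on. The first is the Wnt10b exon that the transcript with the highest Wnt10b TPM lacks; it lies at GRCm39 chr15:98674399-98674661 on the minus strand, is 263 bases long and wholly coding. The sequence is that of transcript ENSMUST00000023732 in GENCODE M21, with the exon in capitals and 10 coding bases of the neighbouring exons in lower case.

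Wnt10b exon: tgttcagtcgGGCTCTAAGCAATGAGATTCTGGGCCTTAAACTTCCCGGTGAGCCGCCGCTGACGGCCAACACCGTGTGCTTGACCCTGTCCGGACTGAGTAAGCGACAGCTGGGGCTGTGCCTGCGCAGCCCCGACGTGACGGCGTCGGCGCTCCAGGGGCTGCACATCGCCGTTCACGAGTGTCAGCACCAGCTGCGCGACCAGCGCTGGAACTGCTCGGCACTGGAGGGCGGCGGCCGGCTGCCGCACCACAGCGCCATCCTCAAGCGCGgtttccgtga

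The alternative first exons of Wnt7b carry different annotated coding starts, and both are shown because the libraries covered the exons very unequally. The first exon of ENSMUST00000229191 lies at GRCm39 chr15:85461709-85462271 and that of ENSMUST00000023015 at chr15:85465581-85466022, both on the minus strand. Each sequence runs from the annotated start codon, in capitals, to the end of the exon, as GENCODE M21 gives it. The stretch of ENSMUST00000229191 is 83 bases long and that of ENSMUST00000023015 is 96. Division by 3 leaves 2 and 0, so the marked starts do not enter a shared exon in the same frame. The stretch of ENSMUST00000023015 also holds a later ATG, left in lower case. From that ATG the frame is the same as from the marked start of ENSMUST00000229191. Which start is translated was not tested.

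Wnt7b start in ENSMUST00000229191: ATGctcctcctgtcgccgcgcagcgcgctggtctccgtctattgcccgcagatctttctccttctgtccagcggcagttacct

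Wnt7b start in ENSMUST00000023015: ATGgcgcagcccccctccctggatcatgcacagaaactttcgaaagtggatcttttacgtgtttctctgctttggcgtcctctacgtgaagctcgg

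Wnt10b and Wnt1 are neighbours that point away from each other of which Wnt10b was among the highest ligands and Wnt1 near 0, so the 250 bases before each start are shown with CpG sites in capitals. They come from the RefSeq promoter table on GRCm38.p6, at chr15:98778151-98778400 on the minus strand for Wnt10b and chr15:98789607-98789856 on the plus strand for Wnt1. The Wnt10b stretch holds 14 CpG sites and is 66.8% GC. The Wnt1 stretch holds 23 and is 71.6% GC.

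Wnt10b promoter: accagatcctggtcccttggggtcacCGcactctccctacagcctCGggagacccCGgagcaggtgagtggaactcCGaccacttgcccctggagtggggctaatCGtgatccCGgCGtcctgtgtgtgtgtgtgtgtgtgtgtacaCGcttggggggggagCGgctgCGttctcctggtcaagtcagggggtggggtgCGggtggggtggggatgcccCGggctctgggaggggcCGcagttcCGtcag

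Wnt1 promoter: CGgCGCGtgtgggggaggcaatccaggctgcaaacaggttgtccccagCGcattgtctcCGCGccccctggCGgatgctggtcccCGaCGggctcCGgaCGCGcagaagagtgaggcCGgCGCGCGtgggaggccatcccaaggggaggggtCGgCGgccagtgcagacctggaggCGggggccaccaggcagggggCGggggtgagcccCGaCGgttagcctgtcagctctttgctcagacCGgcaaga

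The ligands of these myoblasts were Wnt10a, Wnt10b, Wnt7b and Wnt9a. Together they made up between 95.3% and 96.9% of the summed ligand TPM of each library. Wnt10a, which acts through beta-catenin, stood at 11.97 and 13.69 TPM with wild-type lamin A and at 15.3 and 12.9 TPM with K97E. The groups overlap, since wild-type replicate 2 lies above K97E replicate 2. Wnt10b, known for holding precursor cells back from the fat lineage, stood at 11.6 and 8.59 TPM with wild-type lamin A and at 11.4 TPM in K97E replicate 2 and 10.4 TPM in K97E replicate 1. Its highest and its lowest library were both wild type. Wnt7b, a ligand best known from lung and bone, stood at 4.30 and 3.05 TPM with wild-type lamin A and at 3.44 and 6.12 TPM with K97E. K97E replicate 2 stands above the other 3 libraries, and K97E replicate 1 lies between the wild-type libraries. Wnt9a, a ligand of joint and limb development, stood at 3.06 and 3.26 TPM with wild-type lamin A and at 3.14 and 3.65 TPM with K97E, with K97E replicate 1 between the wild-type libraries. The summed ligand TPM was 31.9 and 29.5 with wild-type lamin A and 33.9 and 35.2 with K97E.

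No ligand passed the test between groups, and none had an unadjusted p under 0.05; over all genes tested 0.00613% passed. In limma, with p-values adjusted over all 16304 genes tested, the log2 difference (K97E minus wild type, on the scale of log2(TPM + 0.5)) was 0.07 for Wnt10a (SE 0.12, 95% interval -0.24 to 0.38, adjusted p = 0.967). For Wnt10b it was 0.07 (SE 0.17, interval -0.36 to 0.49, adjusted p = 0.984). For Wnt7b it was 0.26 (SE 0.30, interval -0.50 to 1.02, adjusted p = 0.965), and without K97E replicate 2 it was -0.15. For Wnt9a it was 0.04 (SE 0.16, interval -0.36 to 0.44, adjusted p = 0.990). The interval of Wnt7b holds a doubling as well as a fall, so the libraries do not settle its direction. Leaving out 1 library also turned the sign of the other 3 ligands: Wnt10a stood at -0.02 without wild-type replicate 1 and at -0.01 without K97E replicate 1. Wnt10b stood at -0.14 without wild-type replicate 2 and at -0.03 without K97E replicate 2. Wnt9a stood at -0.0024 without wild-type replicate 1 and at -0.09 without K97E replicate 2.

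Ligands below the measured level fell into those with a trace and those with next to no reads. Wnt4 stood between 0.196 and 0.631 TPM, Wnt2b between 0.296 and 0.388 TPM and Wnt6 between 0.214 and 0.454 TPM. Wnt4 was the member just under the threshold, at a mean of 0.374 TPM, and the Frizzled Fzd3 was the one just above it, at 0.781 TPM. Wnt2, Wnt5b, Wnt1, Wnt16, Wnt3a, Wnt7a, Wnt11 and Wnt9b reached no more than 0.116 TPM in any library, the value of Wnt2 in wild-type replicate 1. Wnt3, Wnt5a, Wnt8a and Wnt8b were listed at 0 in all 4 libraries. Wnt5a and Wnt11 are ligands known for signalling without beta-catenin, and Wnt7a is one known for satellite cells.

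Wnt genes that lie side by side had unequal levels. On GRCm39 chromosome 1, Wnt6 ends 6193 bases before Wnt10a begins on the same strand, and their mean levels were 0.310 and 13.5 TPM. On chromosome 15, 11706 bases separate Wnt10b, at 10.5 TPM, from Wnt1, at 0.0166 TPM, on the opposite strand. On chromosome 11, 16175 bases separate Wnt3a, at 0.0127 TPM, from Wnt9a, at 3.28 TPM. The remaining pair, Wnt9b and Wnt3, lies 24328 bases apart on that chromosome, and neither was measured. In 3 of these 4 pairs of neighbours, then, 1 gene was measured and the other was not.

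**Figure D1:**
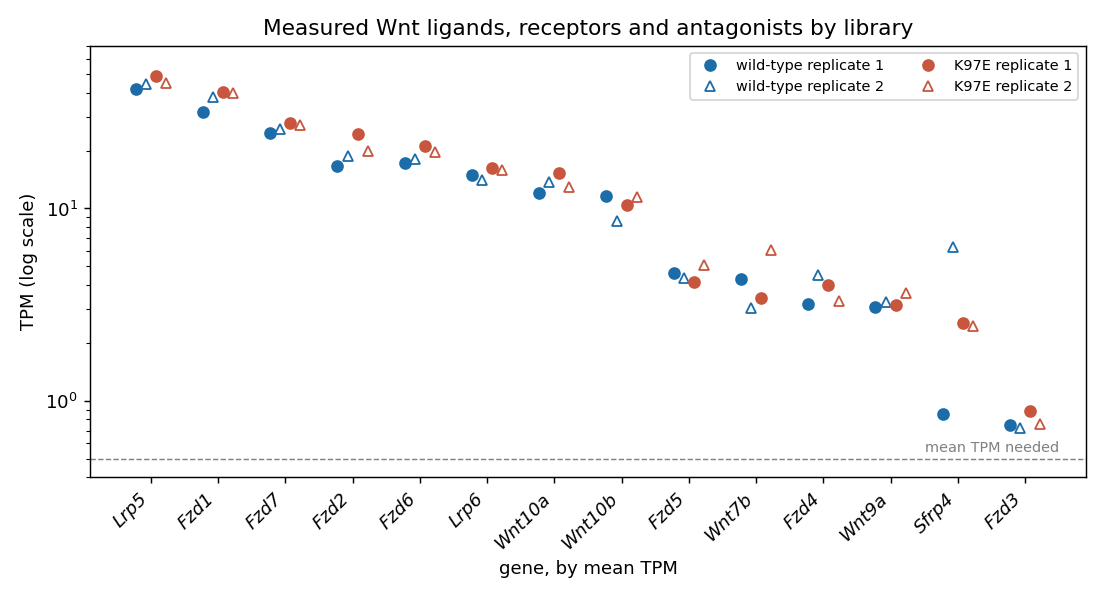
TPM (log scale) of the 14 measured genes in each library, ordered by mean; blue is wild-type lamin A, red is K97E, circles are replicate 1 and triangles replicate 2, and the dashed line is the mean of 0.5 TPM needed to be measured. Lrp5 leads at 41.9 to 48.9 TPM, and Sfrp4 has the widest spread, from 0.858 to 6.32 TPM, with both ends in wild-type libraries.

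Frizzled RNA was led by Fzd1, Fzd7, Fzd2 and Fzd6. Fzd1 stood at 31.6 and 38.0 TPM with wild-type lamin A and at 40.2 and 39.8 TPM with K97E, between 32.0% and 34.4% of all Frizzled TPM. Wild-type replicate 1 stands well below the other 3 libraries. Fzd7, a receptor of satellite cells, stood at 24.8 and 25.9 TPM with wild-type lamin A and at 27.9 and 27.1 TPM with K97E. Fzd2, which is close to Fzd1 and Fzd7 in sequence, stood at 16.7 and 18.8 TPM with wild-type lamin A and at 24.5 and 19.8 TPM with K97E. Fzd6, a Frizzled known from planar cell polarity, stood at 17.3 and 18.1 TPM with wild-type lamin A and at 21.1 and 19.7 TPM with K97E. For these 4 receptors both K97E values in deposited TPM lie above both wild-type values, which was so for 25.9% of all genes tested. After scaling of the libraries to a common median ratio this held for Fzd7, Fzd2 and Fzd6 but not for Fzd1, whose wild-type replicate 2 then lies above K97E replicate 1, and for 16.3% of all genes.

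The other Frizzleds were lower. Fzd5 stood at 4.63 and 4.34 TPM with wild-type lamin A and at 4.14 and 5.11 TPM with K97E, where the K97E libraries are the lowest and the highest. Fzd4, a receptor that also binds Norrin, stood at 3.17 and 4.52 TPM with wild-type lamin A and at 3.995 and 3.298 TPM with K97E, with both K97E libraries between the wild-type ones. Fzd3, known from axon guidance, stood at 0.748 and 0.723 TPM with wild-type lamin A and at 0.890 and 0.762 TPM with K97E. Fzd9 reached 0.234 TPM at most, Fzd8 had a trace in 1 library only, wild-type replicate 2, and Fzd10 was listed at 0 in all 4.

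No Frizzled passed the test. The difference with the smallest p was that of Fzd2, at 0.25 on the log2 scale (SE 0.13, 95% interval -0.07 to 0.56, limma adjusted p = 0.965); without K97E replicate 1 it was 0.13. Fzd1 and Fzd6 both differed by 0.15, with intervals of -0.15 to 0.44 and -0.09 to 0.38. The Fzd1 difference was 0.01 with wild-type replicate 1 left out and 0.28 with wild-type replicate 2 left out. Fzd7 differed by 0.06 (interval -0.16 to 0.28), and by 0.03 with wild-type replicate 1 left out. Fzd3 differed by 0.06 (interval -0.44 to 0.57), and by 0.01 with K97E replicate 1 left out. Fzd5, at -0.02, and Fzd4, at -0.11, had the opposite sign, with intervals of -0.43 to 0.39 and -0.60 to 0.39, and neither sign was stable. Fzd4 turned to 0.12 without wild-type replicate 2. Fzd5 turned with TPM as deposited, quantile normalization or FPKM, at 0.03 or less, and without wild-type replicate 1 (0.02) or K97E replicate 1 (0.15).

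The co-receptors were both expressed, and Lrp5 had the highest level of all 42 genes. Lrp5 stood at 41.9 and 44.4 TPM with wild-type lamin A and at 48.9 and 44.7 TPM with K97E. Lrp6 stood at 15.0 and 14.1 TPM with wild-type lamin A and at 16.2 and 15.8 TPM with K97E. In deposited TPM both K97E libraries lie above both wild-type ones for each co-receptor, which was so for 25.9% of all genes tested. After scaling this held for Lrp6 only, and for 16.3% of all genes. The log2 difference was 0.06 for Lrp5 (95% interval -0.16 to 0.28) and 0.08 for Lrp6 (interval -0.17 to 0.33), and limma gave an adjusted p of 0.965 for each. Leaving out wild-type replicate 1 gave 0.01 for Lrp5, and leaving out wild-type replicate 2 gave 0.03 for Lrp6.

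Secreted antagonists were nearly absent from these cells apart from Sfrp4. Sfrp4 stood at 0.858 and 6.32 TPM with wild-type lamin A and at 2.55 and 2.46 TPM with K97E. The wild-type libraries thus lie on either side of the K97E libraries, and they differ 7.37-fold from each other. The log2 difference was -0.07 (SE 0.72, 95% interval -1.86 to 1.73, limma adjusted p = 0.995). Leaving out wild-type replicate 1 gave -1.24 and leaving out wild-type replicate 2 gave 1.10, so each wild-type library alone would give a difference of the opposite sign. These values rest on an estimated 67.8 and 667.9 reads with wild-type lamin A and 297.8 and 247.7 with K97E. The gap ran along the gene: summed over transcripts, each of 6 exon segments had a coverage of 0.788 to 7.83 in wild-type replicate 1 and of 17.2 to 54.4 in wild-type replicate 2. The myoblast fusion gene Mymk, at 1.16 and 3.83 TPM with wild-type lamin A and 1.92 and 0.926 TPM with K97E, was also highest in wild-type replicate 2, and its part in the Sfrp4 values was not tested.

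The other 9 antagonists were below the measured level. Dkk2 stood between 0.0470 and 0.170 TPM and Dkk3 between 0.0279 and 0.0437 TPM, and Sfrp5 had a trace in K97E replicate 1 only. Dkk1, Dkk4, Sfrp1, Sfrp2, Frzb and Wif1 were listed at 0 in all 4 libraries. Axin2, which beta-catenin induces and which feeds back on it, stood at 0.153 and 0.164 TPM with wild-type lamin A and at 0.251 and 0.174 TPM with K97E. The K97E libraries lie above the wild-type ones, but Axin2 rests on an estimated 26.1 to 56.4 reads per library, lies under the threshold and was not tested. Among the other members under the threshold, Wnt4, Wnt2b, Wnt6 and Fzd9 had the same order of groups. Wnt5b and Dkk3 had the reverse order, and none of these was tested. Of all genes tested, 25.9% had the former order in deposited TPM and 9.72% the latter.

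**Figure D2:**
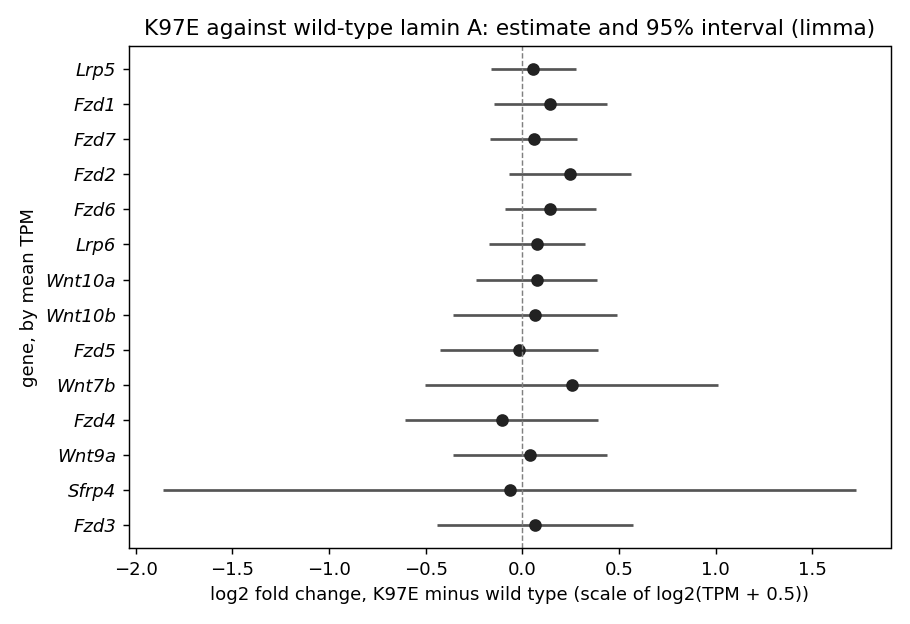
Log2 fold change of K97E against wild-type lamin A for the 14 measured genes, with points for the limma estimate and bars for its 95% interval (2 libraries a group). Every interval includes 0; the narrowest is that of Lrp5, from -0.16 to 0.28, and the widest that of Sfrp4, from -1.86 to 1.73.

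Over the measured genes, then, 0 of 14 passed limma's test at an adjusted p under 0.05, and 0 of 14 had an unadjusted p under 0.05. Of all genes tested 0.00613% and 3.68% did so. With 2 libraries a group an exact permutation test of a single gene could not go below 0.33. Of the 14 genes 11 had a positive difference, with a median of 0.065, where 49.5% of all genes tested were positive and their median was -0.0017. In deposited TPM both K97E libraries lay above both wild-type ones for 7 of 14 genes, against 25.9% of all genes, and below them for 0 of 14, against 9.72%. After scaling it was 5 of 14 above, against 16.3%, and 0 of 14 below, against 16.8%. For Fzd3, 1 of these 5, wild-type replicate 1 and K97E replicate 2 both round to 0.34 on that scale. Wild-type replicate 1 had the lowest TPM for 9 of the 14 genes and for 36.8% of all genes tested, and K97E replicate 1 the highest for 8 of 14 and for 40.8%. The median of the 14 fell to 0.023 (10 positive) once wild-type replicate 1 was dropped. Removing K97E replicate 2 instead lowered this median to 0.056 (8 positive). The median rose to 0.0945 (12 positive) in the absence of wild-type replicate 2. It rose to 0.108 (11 positive) when K97E replicate 1 was removed.

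Ordered by mean level, the measured genes ran Lrp5, Fzd1, Fzd7, Fzd2, Fzd6, Lrp6, Wnt10a, Wnt10b, Fzd5, Wnt7b, Fzd4, Wnt9a, Sfrp4 and Fzd3. The values of Lrp5, Fzd1 and Fzd7 did not overlap with those of the next gene in this order. Fzd2 and Fzd6 overlapped, as did Lrp6 and Wnt10a. From Fzd5 down to Fzd3 each gene's range over the 4 libraries overlapped with the next. Among these lower 6 genes, neighbours in the order are therefore not separated beyond the spread between libraries, but Fzd5 lay clear above Wnt9a, and Fzd3 lay clear below Fzd5, Wnt7b, Fzd4 and Wnt9a and below Sfrp4 within each library. Higher up, the steps from Fzd6 to Lrp6, from Wnt10a to Wnt10b and from Wnt10b to Fzd5 were clear of that spread.

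The transcripts credited with the RNA differed between members. Fzd1, Fzd2, Fzd4 and Fzd7 have 1 annotated transcript each, and Wnt10a and Wnt9a had at least 99.2% of their TPM in 1. Of Lrp5 TPM between 89.3% and 98.4% was credited to the coding transcript ENSMUST00000025856, and of Lrp6 TPM between 92.0% and 96.1% to ENSMUST00000032322. Fzd6 was divided between ENSMUST00000022906, at 65.0% to 80.7%, and ENSMUST00000179165, at 16.4% to 33.2%, which have different first exons and are both annotated as coding. The shares of Sfrp4 varied most. ENSMUST00000002883 held 0.0% and 14.0% of its TPM with wild-type lamin A and 46.0% and 59.2% with K97E. ENSMUST00000222992 held 73.1% and 36.9% with wild-type lamin A and 26.3% and 22.8% with K97E. In wild-type replicate 1 these shares rest on an estimated 67.8 reads, and their difference between groups was not tested.

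Wnt10b was credited mainly to a transcript with a shortened reading frame. ENSMUST00000228546 held 72.1% and 58.7% of Wnt10b TPM with wild-type lamin A and 61.9% and 64.4% with K97E, so the groups overlap. In GENCODE M21 it codes for 171 residues, against 389 for ENSMUST00000023732, and it lacks the 263-base exon printed above. Summed over transcripts, the coverage of the 263-base exon was 0.649 and 0.589 times that of the exon before it with wild-type lamin A and 0.702 and 0.549 times with K97E. Reads therefore did cover the exon, at more than 0.5 times the depth of its neighbour in each library, whereas the 6 of 7 transcripts that contain it were together credited with 27.9% to 41.3% of the TPM.

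Of the Wnt7b first exons compared, the downstream one was covered far more deeply. Its coverage was 8.64 and 6.01 reads per base with wild-type lamin A and 5.77 and 13.9 with K97E. The upstream first exon had 0.290 and 0 with wild-type lamin A and 0.404 and 0.763 with K97E, so that the downstream exon was covered 29.9, 14.3 and 18.2 times as deeply in the 3 libraries where a ratio can be taken. The shared exon that follows had 9.08 and 10.9 reads per base with wild-type lamin A and 11.1 and 19.3 with K97E. In each library this was more than the downstream first exon had. StringTie credited ENSMUST00000229191, the transcript with the downstream start, with 45.1% to 53.4% of Wnt7b TPM. The rest went to ENSMUST00000023015 in 3 libraries and mainly to ENSMUST00000109424, which shares its upstream exon, in K97E replicate 2.

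**Figure D3:**
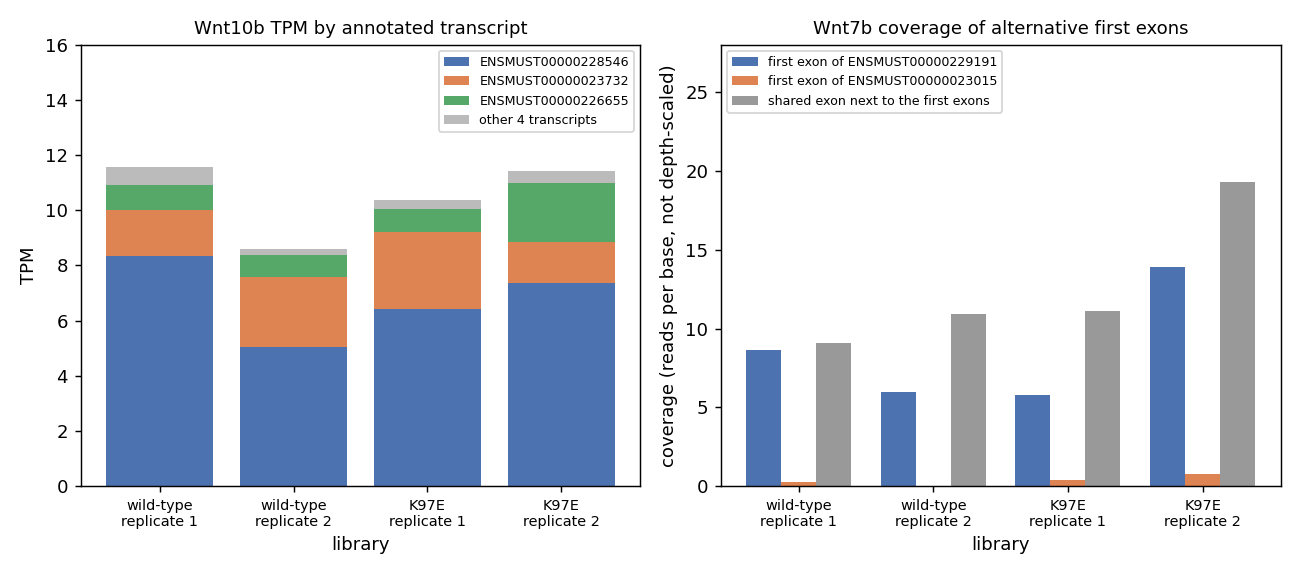
Left, Wnt10b TPM in each library (bars) divided among its annotated transcripts (colours); ENSMUST00000228546 holds 58.7% to 72.1%. Right, coverage in reads per base of the Wnt7b first exons and of the shared exon next to them in each library; the upstream first exon stays at or below 0.763, while the downstream one lies between 5.77 and 13.9.

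Promoter windows of 250 bases before to 50 after the start were found by symbol for 28 of the 42 genes, 6 of them measured. The median GC content was 69.7% for the 6 windows of measured genes and 66.0% for the 25 windows of the others, against 52.7% over all 32851 windows. The median number of CpG sites was 28 and 26 against 7. The exceptions at or below that median were the window of Wnt8b, with 6 sites, and a pair of the Wnt5b windows, with 4 and 7. The TCF and LEF core, searched as CTTTGAT or CTTTGAA on both strands, was found in 0 of the 6 windows of measured genes and in 3 of the 25 others, those of Dkk1, Wnt11 and Wnt5b. Of all windows 8.65% hold it. The Axin2 window holds 31 CpG sites and no match, which says only that these letters are not in it.

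The rest of the pathway was followed with 75 other genes grouped by role, of which 51 were measured. None passed limma's test over all genes, and 0 had an unadjusted p under 0.05. The log2 difference was positive for 29 of the 51, with a median of 0.053, where 49.5% of all genes tested were positive and their median was -0.0017. With TPM as deposited 39 of 51 were positive, with a median of 0.11, and the median of all genes moved to 0.05. It was positive for 23 of 51, with a median of -0.02, without K97E replicate 1. In deposited TPM the K97E libraries both exceeded the wild-type ones for 15 of the 51 genes and both lay below them for 2, against 25.9% and 9.72% of all genes tested. After scaling this was so for 11 and 5, against 16.3% and 16.8%.

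The machinery that releases Wnt ligands was present. Wls, the carrier that takes Wnt proteins to the cell surface, stood at 310.1 and 380.8 TPM with wild-type lamin A and at 410.7 and 350.1 TPM with K97E. Porcn, the enzyme that attaches their lipid, stood at 10.6 and 12.2 TPM with wild-type lamin A and at 13.4 and 11.6 TPM with K97E. Both overlap between the groups, with log2 differences of 0.08 and 0.07 that turned to -0.07 and -0.03 without wild-type replicate 1. Among the surface modulators 6 of 16 were measured, with a median difference of 0.20. Kremen1, a Dkk receptor, stood at 30.8 and 37.9 TPM with wild-type lamin A and at 44.3 and 41.4 TPM with K97E, a log2 difference of 0.27 (SE 0.12, 95% interval -0.04 to 0.57, limma adjusted p = 0.965); without wild-type replicate 1 it was 0.12. Lgr4, a receptor for R-spondins, stood at 16.9 and 15.0 TPM with wild-type lamin A and at 19.3 and 19.0 TPM with K97E, a difference of 0.20 (interval -0.06 to 0.47), or 0.12 with wild-type replicate 2 left out.

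Inside the cell all 15 genes of the cytoplasmic list and all 13 of the nuclear list were measured. Tnks, the tankyrase that marks Axin for destruction, differed by 0.16 (95% interval -0.07 to 0.39), or 0.09 with wild-type replicate 1 left out, and Dvl2, which relays the signal from Frizzled, by 0.15 (interval -0.08 to 0.37). Ctnnbip1, which keeps beta-catenin from TCF factors, stood at 17.4 and 18.4 TPM with wild-type lamin A and at 22.2 and 20.7 TPM with K97E, a difference of 0.20 (interval -0.04 to 0.43). Pygo2, a nuclear co-factor of beta-catenin, also differed by 0.20, and by 0.03 without wild-type replicate 1. Of the planar polarity list, Daam1, a formin that acts below Dvl, differed by -0.15 and by 0.01 without wild-type replicate 1, and Vangl1 by 0.03 and by -0.06 without K97E replicate 1. In the cytoplasmic, nuclear and planar polarity lists both signs occurred, and the medians were between -0.0032 and 0.053.

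Of the 7 genes in the list of other extracellular antagonists, which includes the Dkk-like gene Dkkl1, 3 were measured. Tpbg, a membrane protein that inhibits Wnt signalling and is named here after its values were seen, had the highest level of them, at 25.7 and 32.5 TPM with wild-type lamin A and 28.7 and 28.5 TPM with K97E, so the groups overlap. Igfbp4, an IGF-binding protein that also inhibits Wnt signals, stood at 4.003 and 10.18 TPM with wild-type lamin A and at 6.37 and 3.74 TPM with K97E. As with Sfrp4, wild-type replicate 2 was the highest library, and its log2 difference of -0.42 turned to 0.21 without that library and was -1.04 without wild-type replicate 1. Apcdd1, a membrane inhibitor, differed by 0.18, and by -0.08 without K97E replicate 1. Of 10 known targets 5 were measured, and the difference farthest from 0 was that of Fosl1, a subunit of the AP-1 factor. It stood at 146.5 and 109.6 TPM with wild-type lamin A and at 65.2 and 105.6 TPM with K97E, a log2 difference of -0.67 (SE 0.27, 95% interval -1.34 to 0.01, limma adjusted p = 0.965). Both K97E values lie below both wild-type ones, though K97E replicate 2 is close to wild-type replicate 2, and leaving out K97E replicate 1 gave -0.29. The cyclin gene Ccnd1 stood at 188.9 and 231.4 TPM with wild-type lamin A and at 285.3 and 225.1 TPM with K97E, with overlapping groups and a difference of 0.22, or 0.07 without wild-type replicate 1.

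**Figure D4:**
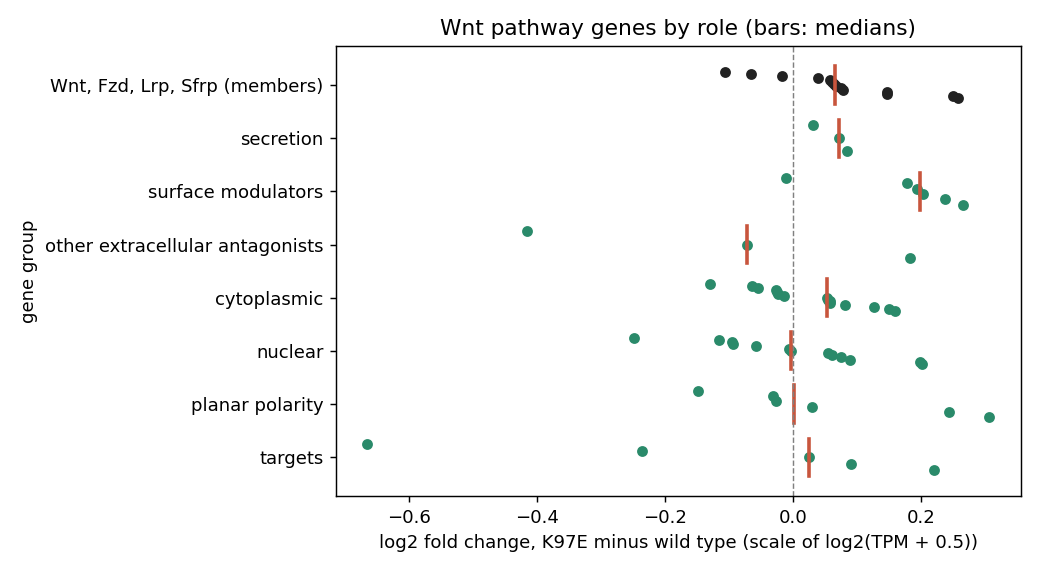
Log2 fold changes of K97E against wild-type lamin A for the 14 measured Wnt, Fzd, Lrp and Sfrp genes (black) and for 51 other measured pathway genes by role (green), each point 1 gene and each red bar the median of its group. The medians run from -0.07 for the other extracellular antagonists to 0.20 for the surface modulators, and the point farthest to the left is Fosl1 at -0.67.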

How the data were processed

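RNA of 4 libraries was analysed from transcript files that the authors deposited, grouped by the title label. Per the file headers, StringTie 2.1.7 estimated annotated transcripts only, with Ensembl release 104 of GRCm39 and no strand option. Other notes name HISAT2, SAMtools, FastQC and DESeq2 per the submitters' processing notes, and DESeq2 was not used here. The deposited files give coverage, FPKM and TPM per transcript, with no read counts.

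Genes were matched by name in either name attribute; 38 of 42 carry the reference name in at least 1 file, and Wnt5a, Dkk1, Sfrp1 and Fzd10 only the other. TPM was summed per gene, divided by median-of-ratios factors (0.98, 0.98, 1.04 and 1.00), and put on the scale of log2(TPM + 0.5). Genes with a mean of at least 0.5 TPM (16304) were tested with limma 3.58.1 in R 4.3.3 (eBayes with trend, 5.54 total degrees of freedom); tests were two-sided and p-values were adjusted by Benjamini-Hochberg. Estimated reads are coverage times length divided by 100. Since they are model estimates, no counting interval was computed. Exons of Fzd6, Wnt7b and Fzd5 overlap antisense genes, at means of 0.172 TPM or less, and reads of the strands cannot be told apart.

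The members and lists were chosen with earlier results of these data known. Every measured member was named, and of each role of the 75-gene list, where no gene was called, the 2 genes with the smallest p at a mean of at least 1 TPM. In simulated data for this comparison (16304 genes), 53 of 100 genes changed by 1 on the log2 scale and 88 of 100 changed by 2 were called, with 8 false calls. The simulated noise was normal and independent between libraries, with variances drawn from the distribution that limma fitted. The differences of the measured members ran only from -0.11 to 0.26, so these rates do not give the power for changes of that size. Alternatives changed the pseudocount, filter, scaling, unit (FPKM) or eBayes setting, blocked on the replicate number, or left out 1 library. Python 3.11.15, pandas 2.3.3 and matplotlib 3.10.9 were used.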

Additional observations from a re-analysis of the deposited data

How the results depend on the processing

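No gene of the 14 measured members and none of the 51 other measured pathway genes was called under any of 15 alternatives; the numbers measured changed with the filter and with a library left out. Of 29 genes followed (the 14 members, 14 named pathway genes and Lmna), 16 kept their direction under all alternatives run, and 11 turned only when a library was left out. Fzd5 (-0.02) turned to 0.0337 with TPM as deposited, 0.0033 with quantile normalization and 0.0070 with FPKM as deposited. Sfrp4 (-0.07) turned to 0.0149 with a pseudocount of 0.1. With a library left out, log2 differences ranged from -0.0219 to 0.17 for Wnt10a, -0.14 to 0.27 for Wnt10b, -0.19 to 0.15 for Fzd5, -0.15 to 0.66 for Wnt7b, -0.34 to 0.12 for Fzd4, -0.0867 to 0.16 for Wnt9a and -1.24 to 1.10 for Sfrp4. They ranged from -0.0669 to 0.23 for Wls, -0.0337 to 0.17 for Porcn, -1.04 to 0.21 for Igfbp4, -0.0812 to 0.44 for Apcdd1, -0.31 to 0.0111 for Daam1 and -0.0569 to 0.11 for Vangl1. Replicate numbers are shared between groups, and same-numbered libraries deviated with a correlation of -0.14. With 2 libraries a group this value cannot settle whether the numbers pair the samples. With the replicate block 0 members and 0 pathway genes were called, and 0 of all genes in place of 1. The crossed pairing, added after seeing the data, called 0 members and 30 of all genes. Read counts are unknown, so no detection limit was set for genes listed at 0.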
